A study of Mus musculus with 8 samples.

Results

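The genes described here are 58 components of the Wnt pathway, of 24346 genes measured in mouse bone marrow MSCs: Wnt ligands, R-spondins, the receptors and co-receptors, the secreted inhibitors, and a small set of intracellular transducers and feedback genes. They were selected by a rule on gene symbols, which was itself proposed with earlier results of these data known. By role they comprise 19 Wnt ligands, 4 R-spondins, 14 receptors and co-receptors, 12 secreted inhibitors and 9 intracellular members. Of the 58, 42 reached a mean of 0.1 RPKM over all libraries and were tested, and 16 fell below this minimum and are given by their levels.

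MSCs are adherent stromal cells of the marrow with the capacity to become osteoblasts, adipocytes or chondrocytes when cultured. The 8 RNA libraries, all of cells at passage 4, form 4 groups of 2: WT and *Dnmt3l* KO MSCs, each undifferentiated and at day 3 of osteogenic induction. The cells came from the bone marrow of female mice on a C57BL/6 background at 8 to 16 weeks of age. KO mice were homozygous for the *Dnmt3l* tmEnls allele and WT mice were their *Dnmt3l*+/+ littermates. Cells carrying CD11b or CD45 were removed on magnetic beads, and cells of 3 mice were mixed for each genotype. The differentiating cells had reached confluence and then received dexamethasone, beta-glycerophosphate and ascorbate-2-phosphate, in a medium with less serum than the growth medium. Effects of the additives, the serum and the confluence cannot be told apart in these groups. Whether replicate libraries stem from separate cell mixes is not given in the sources used here, so that the p-values measure only the spread between these libraries, which may be technical. The *Dnmt3l* deletion is carried by the whole animal, so that no promoter or cell type limits it.

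A Wnt ligand binds a Frizzled receptor together with the co-receptor *Lrp5* or *Lrp6*, which spares beta-catenin from degradation and lets it act with Tcf/Lef proteins at target genes. Other ligands, of which *Wnt5a* is the best known, signal without beta-catenin through receptors such as *Ror1* and *Ror2*. R-spondins keep Frizzled receptors at the cell surface through Lgr receptors. Sfrp proteins, *Frzb* and *Wif1* bind ligands outside the cell, while *Dkk1*, *Dkk2* and sclerostin (*Sost*) act on the co-receptors. In bone marrow stroma the beta-catenin branch is known to favour osteoblasts over fat cells.

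The libraries held an estimated 48.2 to 67.0 M scaled reads, the deepest being replicate 1 of differentiating WT MSCs. At that depth 3 reads on a transcript of 2000 nt stand for 0.0249 to 0.0347 RPKM, a floor that covers counting error only. *Dnmt3l* itself was at 1.56 and 1.09 RPKM in undifferentiated WT and 0.845 and 0.830 RPKM in differentiating WT libraries. It was listed at 0 in all 4 KO libraries, below the 0.0277 to 0.0385 RPKM that 3 reads would give. The authors report that reads of this gene in WT MSCs covered only its later exons. They could not detect the canonical protein in MSCs. Stromal markers had summed levels of 3206 to 5197 RPKM over 12 genes, which differed widely in level. *Col3a1* was at 1192 to 1672 RPKM and *Ly6a* at 471 to 2603 RPKM, while *Nt5e* was at 3.92 to 6.57 RPKM and *Lepr* at 1.14 to 2.96 RPKM. The deposited values of the 2 differentiating KO libraries differed more than those of other replicate pairs, with a mean chi-square per gene of 19.0 against 2.70 to 7.12.

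Markers of other cells moved with the groups. The summed level of 10 leukocyte and macrophage markers was 19.9 to 34.4 RPKM in the WT libraries and 7.83 to 10.4 RPKM in the KO libraries. *Lyz2* alone had group means of 13.1 and 24.7 RPKM in undifferentiated and differentiating WT, and 3.31 and 7.24 RPKM in KO. Of 9 tested, 1 was higher and 5 lower in undifferentiated KO (11.1% and 55.6%, against 14.7% and 17.5% of all genes). In differentiating KO 0 were higher and 8 lower (88.9%, against 22.9%). *Csf1r* went the other way before induction, at 1.48 RPKM in WT and 1.89 RPKM in KO. None of the 10 was at 0 in every library, and the genes of the depleted antigens, *Ptprc* (CD45) and *Itgam* (CD11b), had group means of at most 0.112 and 0.324 RPKM. The 8 osteoblast markers summed to 623 and 629 RPKM in undifferentiated WT and to 1492 and 1386 RPKM in differentiating WT libraries, against 528 and 539 RPKM and 828 and 707 RPKM in the KO libraries. On induction 2 of the 8 were higher and 2 lower in WT at an adjusted p under 0.05 in limma. These are 25.0% each, against 31.6% and 32.8% of all genes tested. In KO 1 was higher and 4 were lower (12.5% and 50.0%, against 36.4% and 36.6%). *Ibsp* rose from group means of 50.4 to 695 RPKM in WT and 20.0 to 350 RPKM in KO, while *Sp7* fell from 7.56 to 3.11 RPKM and 8.19 to 1.53 RPKM. The 6 adipocyte markers summed to 57.1 to 67.7 RPKM before and 420 to 467 RPKM after induction. The 4 chondrocyte markers reached 567 RPKM and the 5 endothelial markers 4.65 RPKM at most, and none of either list was at 0 in every library. Among the chondrocyte markers *Comp* and *Sox9* rose on induction in both genotypes, *Comp* from group means of 26.0 to 514 RPKM in KO. *Col2a1* fell from 121 to 42.1 RPKM in WT and from 134 to 8.31 RPKM in KO. The 6 proliferation markers summed to 130 and 134 RPKM in undifferentiated WT, 67.8 and 74.9 RPKM in differentiating WT, 186 and 187 RPKM in undifferentiated KO, and 33.6 and 22.9 RPKM in differentiating KO libraries. The part of these shifts in the differences of Wnt genes below was not tested. In bulk RNA, fewer cells that express a gene and less of its RNA per cell cannot be told apart.

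The promoters of 3 members are shown first as examples, picked with their results known from members with a forward-strand window. *Rspo3*, which had the largest difference between genotypes, had no window. *Wnt11* differed between genotypes in both states, *Wnt9a* differed between genotypes before induction and fell on induction, and *Ror1* rose most of all members. Each is given as the 250 bases before the RefSeq transcription start, forward strand, genome build GRCm38.p6 (mm10). The capitals in *Wnt11* (chr7:98834862-98835111) mark a Tcf/Lef heptamer, and the capitals in *Wnt9a* (chr11:59306680-59306929) and *Ror1* (chr4:100095541-100095790) mark CG dinucleotides, the sites that DNA methyltransferases modify.
Wnt11: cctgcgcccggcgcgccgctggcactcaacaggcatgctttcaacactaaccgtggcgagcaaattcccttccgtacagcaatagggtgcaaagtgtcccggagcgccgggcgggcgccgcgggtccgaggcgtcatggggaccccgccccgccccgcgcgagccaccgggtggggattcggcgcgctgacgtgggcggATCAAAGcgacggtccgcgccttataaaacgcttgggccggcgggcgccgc
Wnt9a: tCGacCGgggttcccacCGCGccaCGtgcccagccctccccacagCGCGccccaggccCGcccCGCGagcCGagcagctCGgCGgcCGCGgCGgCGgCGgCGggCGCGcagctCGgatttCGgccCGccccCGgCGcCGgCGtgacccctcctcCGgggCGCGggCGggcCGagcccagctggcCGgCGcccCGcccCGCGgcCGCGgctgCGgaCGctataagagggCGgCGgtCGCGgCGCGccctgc
Ror1: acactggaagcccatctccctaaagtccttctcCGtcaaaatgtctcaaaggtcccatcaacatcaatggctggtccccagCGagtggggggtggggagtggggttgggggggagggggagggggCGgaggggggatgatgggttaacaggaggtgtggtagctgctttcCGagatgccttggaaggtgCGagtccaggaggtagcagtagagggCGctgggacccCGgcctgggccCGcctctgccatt

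Windows of 300 bases (250 before and 50 after a start) were found in RefSeq for 40 of the 58 members, with 49 windows in all. The letters searched for, on either strand, were CTTTGAA, the form CTTTGAT that *Wnt11* carries in reverse, and the further forms CTTTGTA and, lastly, CTTTGTT. At least 1 of these heptamers was in 7 of the 49 windows (14.3%), against 16.9% of 32851 windows of all genes and 12.0% of 14114 windows of genes tested. The members holding it were *Dkk1*, *Fzd7*, *Lef1*, *Tcf7l2*, *Wnt11*, *Wnt3* and *Wnt5b*. In *Tcf7l2* it lay at base -14 from an alternative start, in *Wnt3* 18 bases past the start, and in *Wnt11* at base -51. The window of the other *Wnt11* start held none. The window of *Axin2*, a well-known feedback target of the pathway, held none of these letters. Members' windows were rich in CG, with a median of 26.0 per window against 19.0 for genes tested, and ranged from 4 to 58, the highest being that of *Wnt9a*. No methylation was measured in these libraries, so the windows are a description of sequence only.

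By level the members formed a steep gradient. At least 1 group mean was 10 RPKM or more for 16 members, between 1 and 10 RPKM for 19, between 0.1 and 1 RPKM for 11, and below 0.1 RPKM in every group for 12. The receptors were the most evenly expressed role, since 12 of 14 had a group mean of at least 1 RPKM, while this held for 7 of 19 Wnt ligands. *Sost*, *Wnt3a* and *Wnt9b* were listed at 0 in all 8 libraries. For these, 3 reads would have given 0.0240 to 0.0334 RPKM, 0.0175 to 0.0243 RPKM and 0.0104 to 0.0144 RPKM, so higher levels would have been seen. The plot of RPKM by library orders the members of each role by level.

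**Figure D1:**
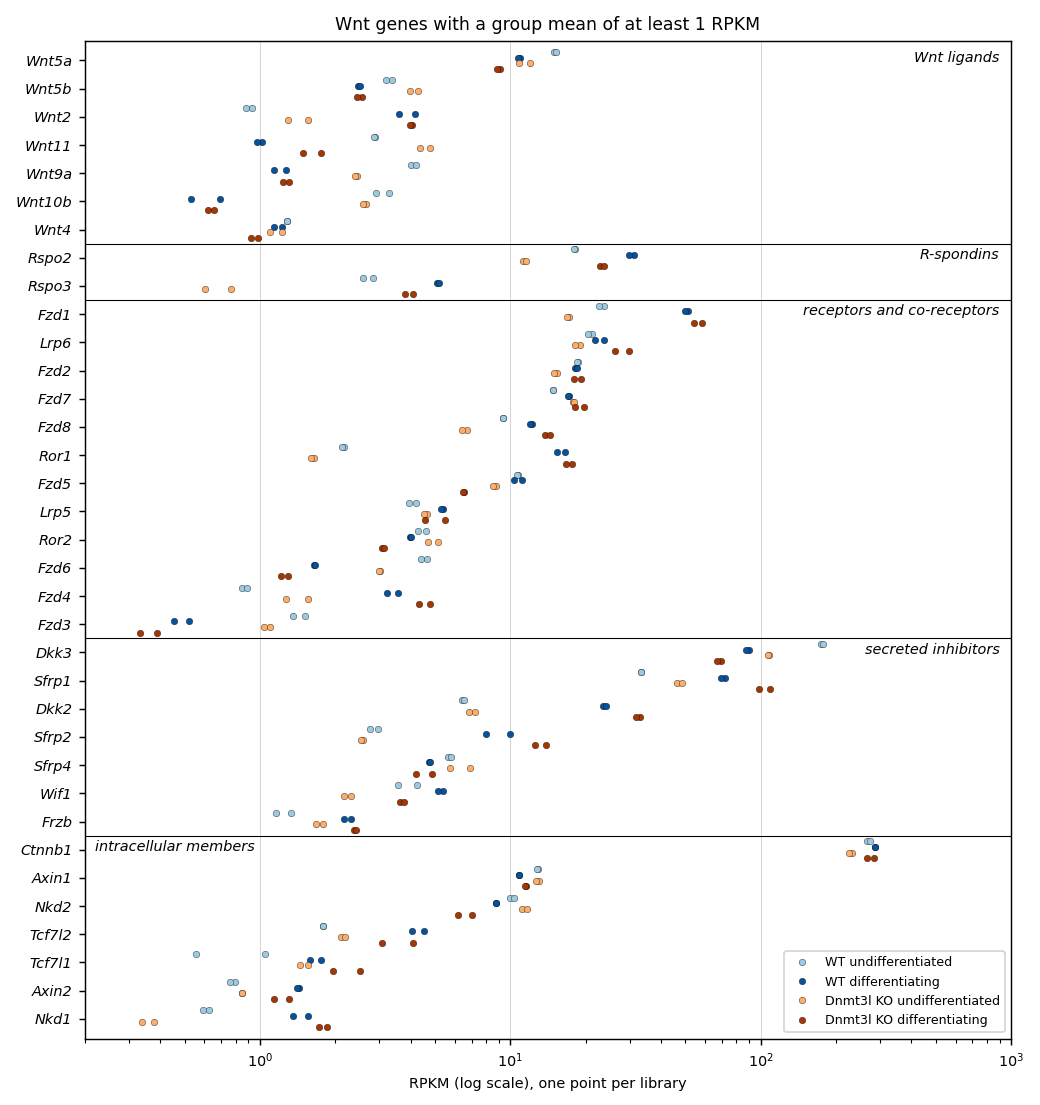
RPKM of the 35 members with a group mean of at least 1 RPKM, on a log axis, with a point for each of the 8 libraries coloured by group and members ordered by mean level within each role. *Dkk3*, *Sfrp1* and *Ctnnb1* lie highest, and in *Ror1*, *Fzd4* and *Dkk2* the differentiating libraries lie apart from the undifferentiated ones in both genotypes.

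Among the ligands *Wnt5a* was the most abundant, with 15.0 and 15.2 RPKM in undifferentiated WT, 10.9 and 10.7 RPKM in differentiating WT, 12.0 and 10.8 RPKM in undifferentiated KO, and 9.07 and 8.84 RPKM in differentiating KO libraries. It made up 48.0% and 48.8% of the summed ligand RPKM in the WT groups and 39.7% and 42.0% in the KO groups. *Wnt5b*, its close relative, was at 3.20 and 3.37 RPKM in undifferentiated WT, 2.46 and 2.50 RPKM in differentiating WT, 4.28 and 3.99 RPKM in undifferentiated KO, and 2.56 and 2.43 RPKM in differentiating KO libraries. So the more abundant ligand was lower and the less abundant one higher in undifferentiated KO than in undifferentiated WT libraries, with no overlap in either.

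*Wnt2* was higher in every differentiating than in every undifferentiated library. It stood at 0.883 and 0.927 RPKM in undifferentiated WT, 3.58 and 4.15 RPKM in differentiating WT, 1.55 and 1.29 RPKM in undifferentiated KO, and 4.03 and 3.96 RPKM in differentiating KO libraries. *Wnt10b*, known to push marrow stroma away from fat, went the other way, with 3.28 and 2.90 RPKM in undifferentiated WT, 0.530 and 0.691 RPKM in differentiating WT, 2.66 and 2.59 RPKM in undifferentiated KO, and 0.657 and 0.618 RPKM in differentiating KO libraries. The differentiating libraries of the genotypes overlapped for both genes.

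*Wnt11* and *Wnt9a* were also lower after induction. *Wnt11* was at 2.88 and 2.85 RPKM in undifferentiated WT, 1.02 and 0.970 RPKM in differentiating WT, 4.76 and 4.35 RPKM in undifferentiated KO, and 1.49 and 1.76 RPKM in differentiating KO libraries, so that KO libraries were above WT libraries in each state. *Wnt9a* was at 4.02 and 4.21 RPKM in undifferentiated WT, 1.14 and 1.27 RPKM in differentiating WT, 2.43 and 2.39 RPKM in undifferentiated KO, and 1.24 and 1.31 RPKM in differentiating KO libraries, so that the genotypes were apart before induction and overlapped after it. *Wnt4*, between 0.925 and 1.28 RPKM over all libraries, was the other ligand with a group mean above 1 RPKM.

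The remaining 12 ligands were scarce. *Wnt2b*, *Wnt16*, *Wnt10a* and *Wnt6* had group means between 0.0316 and 0.486 RPKM and were tested, while the 8 others had no library above 0.107 RPKM. Several ligand genes are neighbours. *Wnt9a* lies 16.1 kb from *Wnt3a* on chromosome 11, and *Wnt10b* lies 11.7 kb from *Wnt1* on chromosome 15. In each of these pairs the means over all libraries were far apart, 2.25 RPKM for *Wnt9a* with *Wnt3a* at 0, and 1.74 RPKM for *Wnt10b* against 0.00228 RPKM for *Wnt1*. *Wnt6* and *Wnt10a*, 6.70 kb apart on chromosome 1, were both low, at 0.152 and 0.223 RPKM. *Wnt9b* and *Wnt3*, whose annotated spans overlap on chromosome 11, were at 0 and 0.0140 RPKM.

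The R-spondins were represented by *Rspo2* (chromosome 15, 43020788 to 43171594) and *Rspo3* (chromosome 10, 29453106 to 29535867). *Rspo2* was at 18.2 and 18.0 RPKM in undifferentiated WT, 31.3 and 29.7 RPKM in differentiating WT, 11.2 and 11.6 RPKM in undifferentiated KO, and 22.9 and 23.7 RPKM in differentiating KO libraries. *Rspo3* was at 2.82 and 2.59 RPKM in undifferentiated WT, 5.09 and 5.19 RPKM in differentiating WT, 0.766 and 0.606 RPKM in undifferentiated KO, and 4.09 and 3.81 RPKM in differentiating KO libraries. Both genes were lower in KO than in WT libraries in each state, without overlap. *Rspo1*, the third most abundant, lay between 0.0249 and 0.210 RPKM, and *Rspo4* did not exceed 0.0269 RPKM.

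Of the receptors, *Fzd1* had the highest mean. It was at 23.6 and 22.5 RPKM in undifferentiated WT, 51.3 and 49.8 RPKM in differentiating WT, 17.2 and 16.8 RPKM in undifferentiated KO, and 54.0 and 58.3 RPKM in differentiating KO libraries. *Fzd2* held 18.2 to 18.6 RPKM in the 4 WT libraries, 15.3 and 14.9 RPKM in undifferentiated KO and 19.2 and 18.0 RPKM in differentiating KO libraries. Both genes were thus lowest in the undifferentiated KO libraries, *Fzd2* by a small margin.

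The co-receptor *Lrp6* was at 21.1 and 20.5 RPKM in undifferentiated WT, 23.6 and 21.7 RPKM in differentiating WT, 19.0 and 18.1 RPKM in undifferentiated KO, and 26.1 and 29.8 RPKM in differentiating KO libraries. *Lrp5*, the other co-receptor, was at 4.21 and 3.93 RPKM in undifferentiated WT, 5.40 and 5.30 RPKM in differentiating WT, 4.64 and 4.51 RPKM in undifferentiated KO, and 4.55 and 5.50 RPKM in differentiating KO libraries. *Lrp6* was the more abundant of the 2 in every library.

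*Ror1* (chromosome 4, 100095791 to 100444806), a receptor tyrosine kinase that binds *Wnt5a*, was at 2.16 and 2.13 RPKM in undifferentiated WT, 16.5 and 15.3 RPKM in differentiating WT, 1.64 and 1.60 RPKM in undifferentiated KO, and 16.7 and 17.7 RPKM in differentiating KO libraries. Its relative *Ror2* was at 3.08 to 5.12 RPKM. Its differentiating libraries lay below its undifferentiated ones in each genotype, so that *Ror2* was the more abundant before induction and *Ror1* after it. *Fzd4* was at 0.847 and 0.884 RPKM in undifferentiated WT, 3.55 and 3.21 RPKM in differentiating WT, 1.27 and 1.56 RPKM in undifferentiated KO, and 4.32 and 4.78 RPKM in differentiating KO libraries. Both *Ror1* and *Fzd4* had no overlap between states.

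*Fzd6* was at 4.40 and 4.64 RPKM in undifferentiated WT, 1.65 and 1.66 RPKM in differentiating WT, 3.01 and 2.98 RPKM in undifferentiated KO, and 1.30 and 1.21 RPKM in differentiating KO libraries. *Fzd3* was at 1.52 and 1.35 RPKM in undifferentiated WT, 0.521 and 0.455 RPKM in differentiating WT, 1.10 and 1.04 RPKM in undifferentiated KO, and 0.332 and 0.388 RPKM in differentiating KO libraries. These 2 receptors were lower after induction in each genotype and lower in KO than in WT libraries of each state. *Fzd8* was at 9.32 and 9.36 RPKM in undifferentiated WT, 12.2 and 12.0 RPKM in differentiating WT, 6.71 and 6.40 RPKM in undifferentiated KO, and 13.8 and 14.4 RPKM in differentiating KO libraries, so that the genotypes changed places. Of the others, *Fzd7* and *Fzd5* lay between 6.50 and 19.7 RPKM, *Fzd9* between 0.204 and 0.570 RPKM, and *Fzd10* did not exceed 0.117 RPKM.

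The secreted inhibitors were the most abundant secreted members, and 2 genes held most of their RNA. *Dkk3*, a Dickkopf family member whose effect on the pathway differs between settings, was at 174 and 177 RPKM in undifferentiated WT, 89.8 and 87.3 RPKM in differentiating WT, 108 and 107 RPKM in undifferentiated KO, and 69.5 and 67.2 RPKM in differentiating KO libraries. *Sfrp1*, a ligand-binding inhibitor, was at 33.3 and 33.2 RPKM in undifferentiated WT, 71.9 and 69.7 RPKM in differentiating WT, 46.3 and 48.7 RPKM in undifferentiated KO, and 98.5 and 109 RPKM in differentiating KO libraries. The order of the 4 groups was exactly opposite for the 2 genes, and no groups overlapped.

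As a result the makeup of the inhibitors shifted more than their sum, as the plot of summed RPKM shows. The sum was 229 ± 3.00 RPKM in undifferentiated WT, 205 ± 4.51 RPKM in differentiating WT, 175 ± 1.80 RPKM in undifferentiated KO and 229 ± 6.57 RPKM in differentiating KO libraries (mean ± SD, n = 2). *Dkk3* held 76.6%, 43.3%, 61.5% and 29.9% of it in these groups, in the same order, and *Sfrp1* held 14.5%, 34.6%, 27.1% and 45.4%. In the differentiating KO libraries *Sfrp1* was thus the more abundant of the 2. The ligand sum was 31.4 ± 0.345, 22.1 ± 0.352, 28.7 ± 1.67 and 21.3 ± 0.104 RPKM in the same groups.

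**Figure D2:**
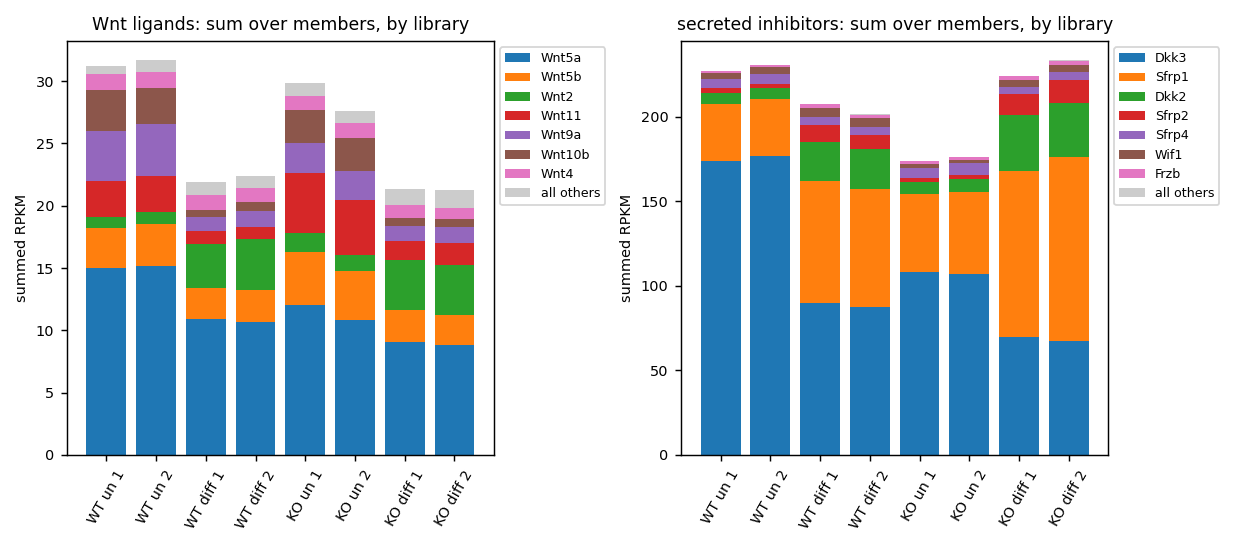
Summed RPKM of the 19 Wnt ligands (left) and the 12 secreted inhibitors (right) in each library, stacked by gene, with un for undifferentiated, diff for differentiating and the replicate number after it. The *Dkk3* share of the inhibitors goes from 76.6% in undifferentiated WT to 29.9% in differentiating KO libraries, while *Wnt5a* is the largest ligand in every library.

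*Dkk2* and *Sfrp2* were higher in every differentiating than in every undifferentiated library. *Dkk2* was at 6.39 and 6.52 RPKM in undifferentiated WT, 23.4 and 24.1 RPKM in differentiating WT, 6.84 and 7.20 RPKM in undifferentiated KO, and 33.1 and 31.7 RPKM in differentiating KO libraries. *Sfrp2* was at 2.96 and 2.76 RPKM in undifferentiated WT, 9.97 and 7.99 RPKM in differentiating WT, 2.58 and 2.53 RPKM in undifferentiated KO, and 12.5 and 13.9 RPKM in differentiating KO libraries. Both were highest in the differentiating KO libraries. *Wif1*, *Sfrp4* and *Frzb* lay between 1.16 and 6.87 RPKM, *Dkk1* between 0.0700 and 0.189 RPKM, and *Sostdc1*, *Sfrp5* and *Dkk4* did not exceed 0.167 RPKM. *Wif1* was lower in KO than in WT libraries of each state, with 3.55 and 4.22 RPKM in undifferentiated WT, 5.38 and 5.16 RPKM in differentiating WT, 2.31 and 2.17 RPKM in undifferentiated KO and 3.63 and 3.75 RPKM in differentiating KO libraries.

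Inside the cell, *Ctnnb1* (beta-catenin) was at 265 and 274 RPKM in undifferentiated WT, 286 and 287 RPKM in differentiating WT, 232 and 226 RPKM in undifferentiated KO, and 284 and 267 RPKM in differentiating KO libraries. *Axin1*, a scaffold of the complex that degrades beta-catenin, was at 12.9 and 12.8 RPKM in undifferentiated WT and 10.8 RPKM in both differentiating WT libraries. In KO it was at 13.0 and 12.7 RPKM in undifferentiated and 11.6 and 11.4 RPKM in differentiating libraries. These small falls on induction were called in WT (log2 fold change -0.25, limma adjusted p = 0.000638) and in KO (-0.16, adjusted p = 0.0038). *Nkd2*, which dampens Dishevelled, was at 10.0 and 10.3 RPKM in undifferentiated WT, 8.77 and 8.76 RPKM in differentiating WT, 11.1 and 11.7 RPKM in undifferentiated KO, and 7.06 and 6.17 RPKM in differentiating KO libraries. Apart from *Ctnnb1* the levels of this role were modest.

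The feedback genes *Axin2* and *Nkd1* are widely read as reporters of beta-catenin activity. *Axin2* was at 0.792 and 0.759 RPKM in undifferentiated WT, 1.43 and 1.41 RPKM in differentiating WT, 0.848 and 0.849 RPKM in undifferentiated KO, and 1.14 and 1.31 RPKM in differentiating KO libraries. *Nkd1* was at 0.594 and 0.624 RPKM in undifferentiated WT, 1.56 and 1.36 RPKM in differentiating WT, 0.338 and 0.377 RPKM in undifferentiated KO, and 1.72 and 1.85 RPKM in differentiating KO libraries. The order of the groups was therefore not the same for the 2 reporters, since undifferentiated KO libraries were lowest for *Nkd1* and undifferentiated WT libraries lowest for *Axin2*.

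The Tcf/Lef genes, whose proteins bring beta-catenin to DNA, were all low. *Tcf7l2* was at 1.78 RPKM in both undifferentiated WT libraries, 4.53 and 4.04 RPKM in differentiating WT, 2.11 and 2.18 RPKM in undifferentiated KO, and 3.08 and 4.07 RPKM in differentiating KO libraries. *Tcf7l1* was at 1.05 and 0.556 RPKM in undifferentiated WT, 1.76 and 1.58 RPKM in differentiating WT, 1.56 and 1.44 RPKM in undifferentiated KO, and 1.96 and 2.51 RPKM in differentiating KO libraries. *Tcf7* was at 0.480 and 0.517 RPKM in undifferentiated WT, 0.234 and 0.210 RPKM in differentiating WT, 0.835 and 0.782 RPKM in undifferentiated KO, and 0.205 and 0.347 RPKM in differentiating KO libraries. *Tcf7l2* was higher and *Tcf7* lower after induction, without overlap between states in either genotype. *Lef1*, below the minimum of the test, did not exceed 0.0700 RPKM in the differentiating libraries and stood at 0.0778 and 0.0741 RPKM in the undifferentiated WT libraries against 0.173 and 0.190 RPKM in the undifferentiated KO ones.

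Osteogenic induction changed most of the tested members in WT MSCs. Receptors and inhibitors mainly rose, while 5 ligands fell: *Wnt5a*, *Wnt5b*, *Wnt9a*, *Wnt10b* and *Wnt11*. Of 42 tested members 20 were higher (47.6%) and 11 lower (26.2%) at an adjusted p under 0.05 in limma, against 31.6% higher and 32.8% lower of all 15342 genes tested. DEGs, which also needed an absolute log2 fold change above 1 on the log2(RPKM + 0.1) scale, numbered 11 higher and 5 lower. Together these were 38.1% of the tested members, against 14.3% of all genes (9.69% higher and 4.63% lower). The median log2 fold change of the tested members was 0.35, with that of all genes at 0.00. Centring each library on its median moved the median of all genes by -0.101 in this comparison, and no called member changed its direction, while the uncalled differences of *Ctnnb1* (0.09) and *Fzd5* (0.00) became -0.01 and -0.10. *Fzd7* (0.20) kept a change of 0.10 that was then not called (adjusted p = 0.083).

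By role, 7 of 13 receptors rose (53.8%) and 2 fell (15.4%) in WT MSCs, and 5 of 8 inhibitors rose (62.5%) and 1 fell (12.5%). Of all genes 31.6% rose and 32.8% fell. *Ror1* rose most, 7.40-fold in mean RPKM (log2 fold change 2.83, SE 0.05, adjusted p = 6.37e-07). *Wnt2* rose by 1.98 on the log2 scale (SE 0.11, adjusted p = 2.29e-05), *Dkk2* by 1.86 (SE 0.04, adjusted p = 1.13e-06) and *Fzd4* by 1.85 (SE 0.11, adjusted p = 3.64e-05). The other DEGs that rose were *Sfrp2* (1.61), *Wnt6* (1.23), *Tcf7l2* (1.22), *Nkd1* (1.14), *Fzd1* (1.13), *Sfrp1* (1.09) and *Tcf7l1* (1.03). Of these *Wnt6* was at 0.0109 and 0.0522 RPKM before and 0.192 and 0.219 RPKM after induction, near the floor of the measurement. The call of *Tcf7l1* was lost without WT differentiating replicate 1 (adjusted p = 0.081) or replicate 2 (adjusted p = 0.053).

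The members that fell as DEGs in WT MSCs were *Wnt10b* (log2 fold change -2.17, SE 0.12, adjusted p = 2.88e-05), *Wnt9a* (-1.70, SE 0.07, adjusted p = 8.22e-06), *Wnt11* (-1.43, SE 0.09, adjusted p = 4.58e-05), *Fzd6* (-1.40, SE 0.06, adjusted p = 8.77e-06) and *Fzd3* (-1.39, SE 0.12, adjusted p = 0.000128). *Dkk3* fell by 0.99 (SE 0.03, adjusted p = 3.52e-06), just short of the fold limit of a DEG. *Axin2* rose by 0.80 (adjusted p = 0.000372), while *Ctnnb1* differed by 0.09 (95% interval -0.02 to 0.19, adjusted p = 0.12). Both R-spondins rose, *Rspo3* by 0.90 and *Rspo2* by 0.75 on the log2 scale. *Lrp5* rose by 0.39 (adjusted p = 0.0104), a call lost without WT undifferentiated replicate 2 (adjusted p = 0.064) or WT differentiating replicate 1 (adjusted p = 0.057). For *Lrp6* the difference was 0.12 (95% interval -0.06 to 0.30), which was not called. *Fzd9* rose by 0.94 (adjusted p = 0.0105), but not without WT undifferentiated replicate 2 (0.059) or WT differentiating replicate 2 (0.055), and the small fall of *Nkd2* (-0.21, adjusted p = 0.0325) lost the call without any 1 library (0.054 to 0.13) other than the differentiating KO ones.

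In KO MSCs 6 of 13 receptors rose (46.2%) and 4 fell (30.8%), and 5 of 8 inhibitors rose (62.5%) and 2 fell (25.0%). Both tested R-spondins rose, and 8 of 11 ligands fell (72.7%). Of 42 members 20 were higher (47.6%) and 17 lower (40.5%), against 36.4% and 36.6% of all genes. DEGs numbered 13 higher and 5 lower, and the median log2 fold change was 0.27. Together the DEGs were 42.9% of the tested members, against 22.9% of all genes (13.0% higher and 9.87% lower). All 11 tested ligands were called, 3 higher (*Wnt2*, *Wnt6* and *Wnt16*) and 8 lower. Counts were 34 called members without KO differentiating replicate 2 and 38 without replicate 1, with 18 DEGs in each case.

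*Ror1* rose most again, 10.6-fold in mean RPKM (log2 fold change 3.33, SE 0.05, adjusted p = 2.08e-07). *Rspo3* rose by 2.37 (SE 0.11, adjusted p = 5.95e-06), *Sfrp2* by 2.32 (SE 0.11, adjusted p = 7.50e-06), *Dkk2* by 2.19 (SE 0.04, adjusted p = 3.38e-07) and *Nkd1* by 2.05 (SE 0.10, adjusted p = 8.54e-06). *Fzd1* (1.72), *Wnt6* (1.67), *Fzd4* (1.62), *Wnt16* (1.61), *Wnt2* (1.44), *Sfrp1* (1.13), *Fzd8* (1.09) and *Rspo2* (1.03) were the other DEGs that rose. Those that fell were *Wnt10b* (-1.89), *Wnt11* (-1.43), *Fzd3* (-1.34), *Tcf7* (-1.30) and *Fzd6* (-1.19). *Axin2* rose by 0.48 (adjusted p = 0.00252), but not after quantile normalization (adjusted p = 0.057). Among the ligands that fell, *Wnt10a* (-0.60), *Wnt2b* (-0.54) and *Wnt4* (-0.26) lost the call without KO differentiating replicate 2 (0.088, 0.063 and 0.1) and without an undifferentiated KO library, replicate 1 for *Wnt10a* (0.11) and *Wnt2b* (0.075) and replicate 2 for *Wnt4* (0.13). *Wnt2b* lost it also without KO differentiating replicate 1 (0.055).

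The 2 genotypes had no libraries in common, so their lists can be set side by side. They are not fully independent, since the spread of a gene was estimated over all 8 libraries together. In all, 27 members were past the adjusted p in both genotypes, all 27 in the same direction, 16 higher and 11 lower. That was 64.3% of the tested members, against 56.0% of all genes. Of those genes 95.7% had the same direction, with 26.2% of all genes higher and 27.4% lower in both genotypes. Of these 13 (31.0%, against 12.0% of all genes) were DEGs in both: *Ror1*, *Fzd1*, *Fzd4*, *Dkk2*, *Sfrp1*, *Sfrp2*, *Wnt2*, *Wnt6* and *Nkd1* rose, and *Wnt10b*, *Wnt11*, *Fzd3* and *Fzd6* fell. The plot of changes with induction shows them beside each other.

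**Figure D3:**
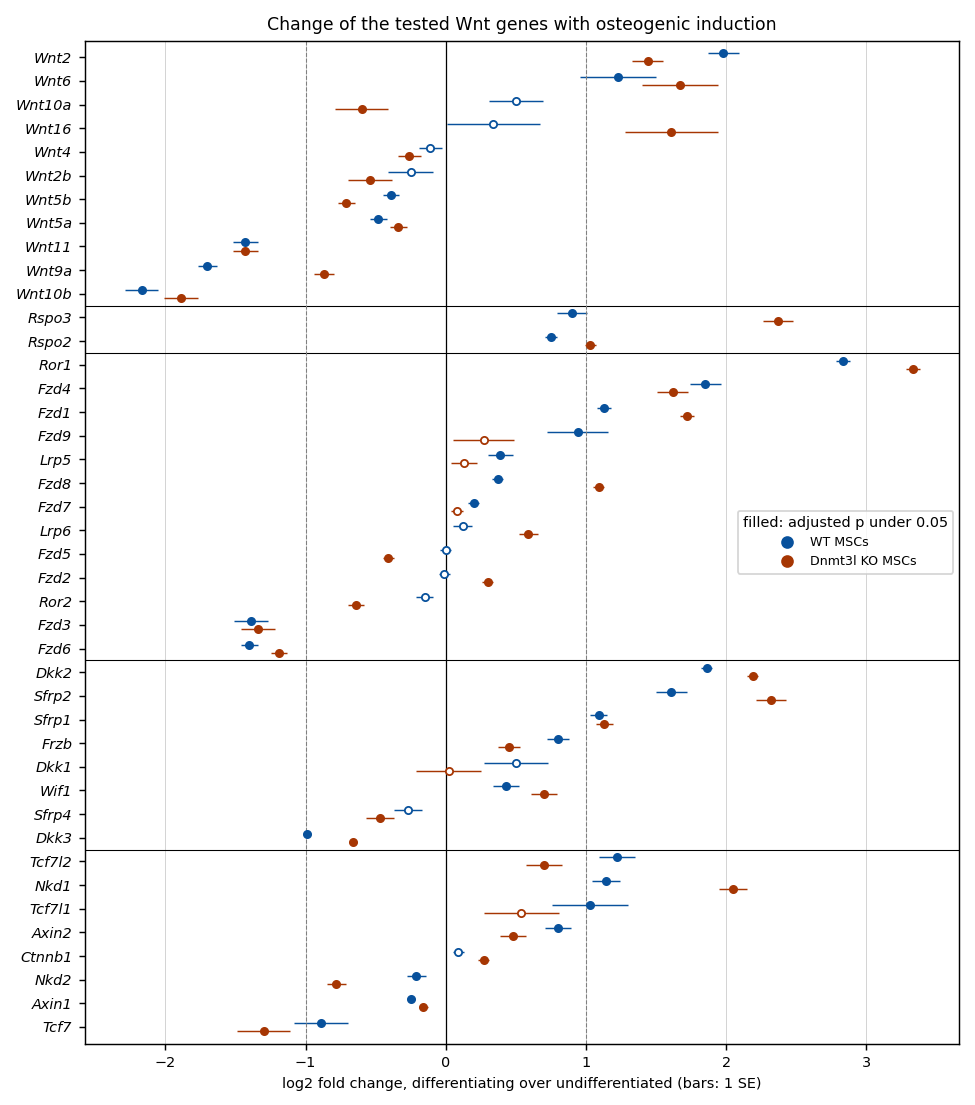
Log2 fold change of differentiating over undifferentiated MSCs for the 42 tested members in WT (blue) and *Dnmt3l* KO (brown) MSCs, with bars of 1 SE, filled points for an adjusted p under 0.05, dashed lines at the fold limit of a DEG, and roles separated by lines from ligands at the top to intracellular members at the bottom. *Ror1* lies furthest right at 2.83 and 3.33, and *Wnt10b* furthest left at -2.17 and -1.89.

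Between genotypes the differences were smaller. In undifferentiated KO MSCs the R-spondins, most of the Frizzled receptors, *Wnt5a*, *Wnt9a*, *Dkk3*, *Wif1* and *Nkd1* were lower than in WT, and *Wnt11*, *Wnt2*, *Wnt5b*, *Fzd4*, *Fzd7*, *Sfrp1* and *Frzb* were higher. Of 42 members 9 were higher (21.4%) and 15 lower (35.7%), against 14.7% and 17.5% of all genes. Only *Rspo3* was a DEG, and it was lower. That was 2.38% of the tested members, against 1.7% of all genes (0.613% higher and 1.09% lower). The median log2 fold change was 0.03. In this comparison, as in that of differentiating cells, the summed leukocyte and macrophage markers and the summed proliferation markers given above differed between genotypes, and their part in it was not tested.

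*Rspo3* was 3.95-fold lower in mean RPKM in undifferentiated KO than WT MSCs (log2 fold change -1.84, SE 0.11, adjusted p = 0.000349), and *Rspo2* was lower by a log2 fold change of -0.67 (SE 0.04, adjusted p = 0.000361). Receptors that were lower were *Fzd6* (-0.58), *Fzd8* (-0.50), *Fzd1* (-0.43), *Fzd3* (-0.40), *Ror1* (-0.39), *Fzd2* (-0.29) and *Fzd5* (-0.29). That is 7 of 13 (53.8%, against 17.5% of all genes), while *Fzd4* (0.64) and *Fzd7* (0.27) were higher (15.4%, against 14.7%). Among these the call of *Fzd3* (adjusted p = 0.0444) was lost without WT undifferentiated replicate 1 (0.17) or replicate 2 (0.083) and without KO undifferentiated replicate 1 (0.12) or replicate 2 (0.17), as it also was without either differentiating WT library (0.058 each). That of *Fzd4* (adjusted p = 0.00926) was lost without WT undifferentiated replicate 1 (0.053).

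Of the ligands, *Wnt9a* (-0.75, SE 0.07, adjusted p = 0.00143) and *Wnt5a* (-0.40, SE 0.06, adjusted p = 0.0045) were lower. Those that were higher were *Wnt10a* (0.82, adjusted p = 0.023), *Wnt11* (0.65, SE 0.09, adjusted p = 0.00483), *Wnt2* (0.59) and *Wnt5b* (0.32). In mean RPKM *Wnt10a* was 2.30-fold higher, at 0.326 in KO against 0.142 in WT, and the paper names it among its upregulated genes. On the log2(RPKM + 0.1) scale, which understates changes of low genes, it stayed within the fold limit of a DEG. The calls of *Wnt2* (adjusted p = 0.0106) and *Wnt5b* (adjusted p = 0.0111) were lost without WT undifferentiated replicate 1 (0.059 and 0.061) or KO undifferentiated replicate 1 (0.053 and 0.068), and that of *Wnt2* also without WT undifferentiated replicate 2 (0.052). That of *Wnt10a* was lost without WT undifferentiated replicate 2 (0.1) or either undifferentiated KO library (0.099 and 0.062).

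Of 8 tested inhibitors 2 were lower and 2 higher (25.0% each, against 17.5% and 14.7% of all genes), and 4 were not called. *Wif1* (-0.76, SE 0.09, adjusted p = 0.00241) and *Dkk3* (-0.70, SE 0.03, adjusted p = 0.000194) were lower, and *Sfrp1* (0.51, SE 0.06, adjusted p = 0.00207) and *Frzb* (0.44, SE 0.08, adjusted p = 0.0113) were higher. The call of *Frzb* was lost without WT undifferentiated replicate 2 (0.053) or KO undifferentiated replicate 1 (0.07). Inside the cell *Nkd1* was lower (-0.63, SE 0.10, adjusted p = 0.00695), as was *Ctnnb1* (-0.24, SE 0.04, adjusted p = 0.00985), a call lost without replicate 2 of either undifferentiated group (0.063 for WT and 0.067 for KO). *Axin2* differed by 0.12 (95% interval -0.09 to 0.32), which was not called. *Tcf7l1* was at the border of the test (0.88, SE 0.27, adjusted p = 0.0499), and most alternatives to the analysis lost this call, among them leaving out any library other than WT undifferentiated replicate 1 (0.068 to 0.19).

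In differentiating MSCs 9 members were higher (21.4%) and 10 lower (23.8%) in KO than WT, against 17.8% and 22.9% of all genes, which was close to the background. No member was a DEG, against 1.36% higher and 1.95% lower of all genes, and the median log2 fold change was 0.02. The calls fell to 11 without WT differentiating replicate 2 and to 13 without KO differentiating replicate 2. Among the members called, the differences largest in size were those of *Fzd5* (-0.70, SE 0.04, adjusted p = 0.000615), *Wnt11* (0.65, SE 0.09, adjusted p = 0.00376), *Sfrp2* (0.56, SE 0.11, adjusted p = 0.0109), *Sfrp1* (0.55, SE 0.06, adjusted p = 0.00142) and *Wif1* (-0.50, SE 0.09, adjusted p = 0.00701). Of these the call of *Sfrp2* was lost without KO differentiating replicate 2 (0.063). *Dkk2* was higher (0.45, SE 0.04, adjusted p = 0.00123), and *Rspo2* (-0.39), *Dkk3* (-0.37), *Fzd6* (-0.37), *Ror2* (-0.35) and *Nkd2* (-0.40) were lower. The lower *Rspo3* (-0.37, SE 0.11, adjusted p = 0.0353) lost the call when any 1 library of the differentiating groups (0.07 to 0.15) or of undifferentiated WT (0.058) was left out. The small differences of *Fzd4* (0.42), *Lrp6* (0.30), *Wnt5a* (-0.27), *Fzd8* (0.22) and *Fzd1* (0.15) were each past the adjusted p, and each call was lost without WT differentiating replicate 2 (0.15, 0.12, 0.059, 0.056 and 0.19). It was lost for *Lrp6* also without KO differentiating replicate 2 (0.071), for *Wnt5a* also without that library (0.062) or WT differentiating replicate 1 (0.065), and for *Fzd4* without any library but the undifferentiated KO ones (0.051 to 0.15). With 1 library left out, the call of *Fzd1* (adjusted p = 0.0459) held only without KO differentiating replicate 1. Among the smallest calls, *Wnt4* (-0.28, adjusted p = 0.0413) and *Fzd7* (0.15, adjusted p = 0.0302) were each lost without any of 6 libraries, the WT ones among them (0.056 to 0.16).

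The states share no libraries either, but again share the estimate of the spread, so their calls are not fully independent. Whether both states of a genotype came from the same cell mix is not given in the sources used here. If they did, a difference between the mixes would be present in both states. In both, 13 members (31.0%) were past the adjusted p, against 17.2% of all genes. Of these 11 (84.6%) had the same direction, against 41.1% of all genes called in both: *Wnt11*, *Fzd4*, *Fzd7* and *Sfrp1* were higher and *Wnt5a*, *Rspo2*, *Rspo3*, *Fzd5*, *Fzd6*, *Dkk3* and *Wif1* lower in KO MSCs. *Fzd1* and *Fzd8* were lower before and higher after induction. A further 12 tested members (28.6%) passed in neither state, against 44.2% of all genes. The plot of genotype differences sets the states beside each other.

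**Figure D4:**
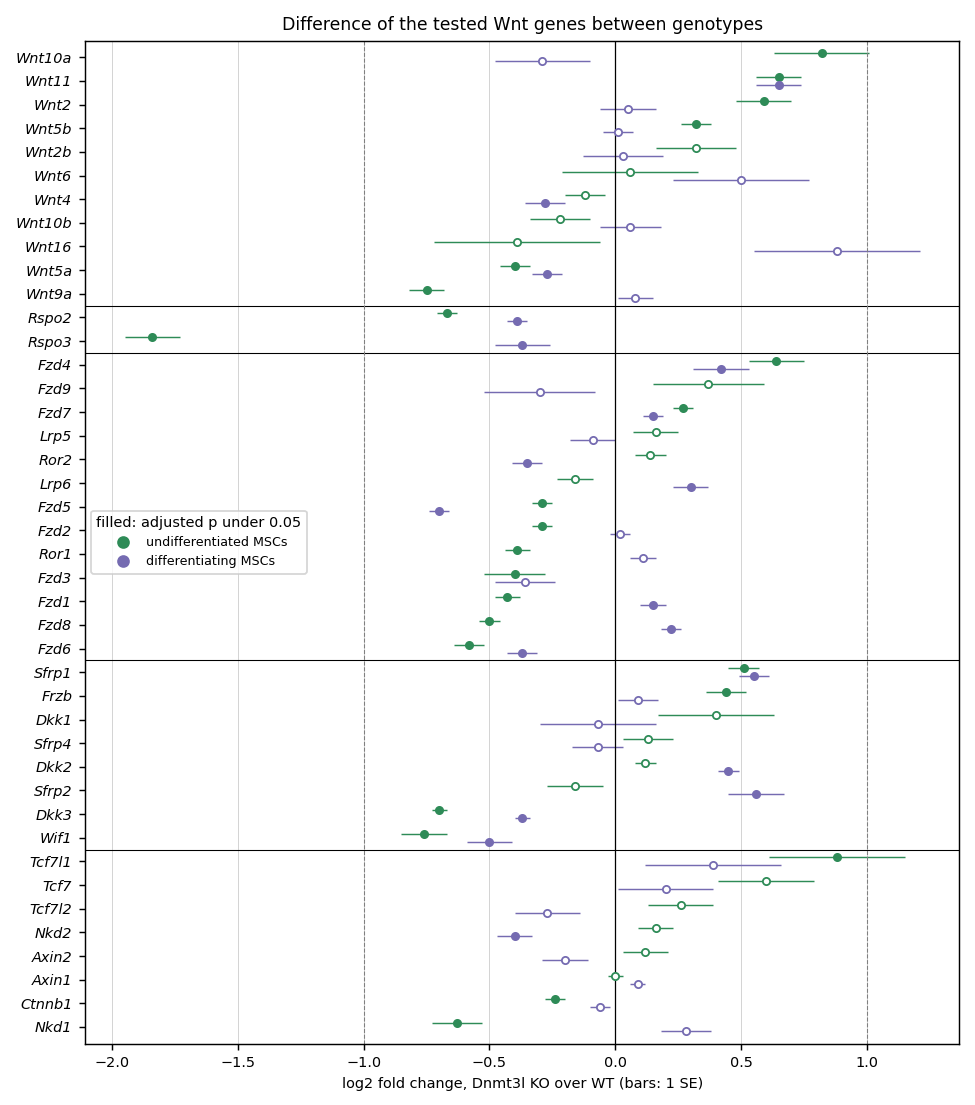
Log2 fold change of *Dnmt3l* KO over WT for the 42 tested members in undifferentiated (green) and differentiating (purple) MSCs, with bars of 1 SE, filled points for an adjusted p under 0.05, dashed lines at the fold limit of a DEG, and roles separated by lines. *Rspo3* in undifferentiated MSCs, at -1.84, is the 1 point beyond the fold limit.

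The interaction asks whether induction changed a member by different amounts in the genotypes. It was positive (a larger or less negative change in KO) for 12 members (28.6%) and negative for 6 (14.3%), against 19.4% and 20.0% of all genes. As DEGs there were 1 in each direction, and the median was 0.04. Together these were 4.76% of the tested members, against 6.17% of all genes (2.76% positive and 3.42% negative). *Rspo3* had the largest interaction (1.47, SE 0.15, adjusted p = 0.00148), and rose by 0.90 in WT and by 2.37 in KO MSCs. *Nkd1* (0.91, SE 0.14, adjusted p = 0.00509), *Wnt9a* (0.83, SE 0.10, adjusted p = 0.00233), *Fzd8* (0.72, SE 0.06, adjusted p = 0.000812) and *Fzd1* (0.59, SE 0.07, adjusted p = 0.00194) were also positive. For these genes and *Rspo3* the KO libraries were lower before induction.

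*Sfrp2* (0.71), *Ror1* (0.50), *Lrp6* (0.46), *Dkk3* (0.33), *Dkk2* (0.33), *Fzd2* (0.31) and *Rspo2* (0.28) also had a positive interaction. Negative ones were those of *Wnt10a* (-1.11, SE 0.27, adjusted p = 0.0219, lost without WT undifferentiated replicate 2 at 0.059 and without WT differentiating replicate 2 or KO undifferentiated replicate 1 at 0.064), *Nkd2* (-0.56), *Wnt2* (-0.54), *Ror2* (-0.49), *Fzd5* (-0.41) and *Wnt5b* (-0.32). For *Wnt11* and *Sfrp1* no interaction was called, with values of 0.00 (95% interval -0.32 to 0.32) and 0.04 (95% interval -0.15 to 0.23). *Wnt2*, *Wnt5b*, *Sfrp2* and *Lrp6* lost the call without 1 of several libraries. Over the libraries whose removal lost it, the adjusted p was 0.077 to 0.11 for *Wnt2* (any library except WT differentiating replicate 1 and KO undifferentiated replicate 2) and 0.054 to 0.096 for *Wnt5b* (any except KO undifferentiated replicate 2 and KO differentiating replicate 1). It was 0.052 to 0.058 for *Sfrp2* (WT undifferentiated replicate 1, either undifferentiated KO library or KO differentiating replicate 2) and 0.059 to 0.063 for *Lrp6* (WT undifferentiated replicate 1, WT differentiating replicate 2 or KO undifferentiated replicate 2). For the interaction of *Axin2* (-0.32, adjusted p = 0.0851) the call was gained without KO differentiating replicate 2 (0.035).

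Of 56 other genes of the pathway, covering ligand secretion, receptor turnover, transduction, nuclear partners, common targets and planar polarity, 52 were tested. In undifferentiated KO against WT MSCs 8 were higher (15.4%) and 15 lower (28.8%), against 14.7% and 17.5% of all genes, and 5 were DEGs, all lower (9.62%, against 1.09%). In differentiating MSCs 14 were higher (26.9%) and 7 lower (13.5%), against 17.8% and 22.9% of all genes, with 1 DEG, which was lower (1.92%, against 1.95%). On induction 18 rose (34.6%) and 16 fell (30.8%) in WT MSCs, close to the 31.6% and 32.8% of all genes. In KO MSCs 22 rose (42.3%) and 19 fell (36.5%), against 36.4% and 36.6% of all genes. The median log2 fold changes were -0.03, -0.05, 0.03 and -0.05 in these comparisons.

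The 5 DEGs lower in undifferentiated KO MSCs were *Lgr5*, a receptor of R-spondins (log2 fold change -1.65, SE 0.16, adjusted p = 0.00157), *Tnfrsf19* (-1.57, SE 0.13, adjusted p = 0.000844) and *Wisp1* (-1.16, SE 0.08, adjusted p = 0.000629), both known as targets of beta-catenin, *Dact1*, a Dishevelled partner (-1.25, SE 0.11, adjusted p = 0.00123), and *Porcn*, the acyltransferase that Wnt ligands need for secretion (-1.24, SE 0.05, adjusted p = 0.000128). In mean RPKM, *Porcn* went from 12.7 in undifferentiated WT to 5.31 in undifferentiated KO, and *Lgr5* from 1.49 to 0.409. So the R-spondin *Rspo3* and the receptor *Lgr5* were both DEGs lower in undifferentiated KO MSCs. Other R-spondin receptors went the other way in mean RPKM. *Lgr4*, the most abundant, was at 23.4 in undifferentiated WT and 27.5 in undifferentiated KO, and *Lgr6* at 0.986 and 1.89. After induction *Porcn* was at 26.0 in WT and 23.6 RPKM in KO, and *Lgr5* at 1.82 and 1.68 RPKM, neither called between genotypes.

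The interaction of genotype and induction was positive for 18 (34.6%) and negative for 8 (15.4%) of these 52 genes, against 19.4% and 20.0% of all genes, with a median of 0.09. Its DEGs were *Dact1* (1.89), *Tnfrsf19* (1.61), *Lgr5* (1.54), *Lrp4*, a co-receptor relative of *Lrp5* and *Lrp6* (1.48), and *Porcn* (1.11) above 0, and *Bcl9l* (-1.16) and *Lgr6* (-1.06) below 0. *Lgr6*, another R-spondin receptor, fell from 0.986 to 0.0702 RPKM in WT and from 1.89 to 0.0497 RPKM in KO MSCs on induction. *Wisp1* fell from 93.3 to 11.9 RPKM in WT and from 41.8 to 5.78 RPKM in KO MSCs, and was also a DEG between differentiating KO and WT MSCs (-1.03, SE 0.08, adjusted p = 0.000933). Of the remaining DEGs of induction, *Ptk7* fell in both genotypes (-1.34 in WT and -1.24 in KO) and *Apcdd1* rose in both (1.37 and 1.82). *Vangl2* (-1.02 and -0.88) fell and *Prickle1* (0.70 and 1.36) rose in both, each past the fold limit in 1 genotype. The interaction of *Bcl9l* (adjusted p = 0.0197) was lost without any 1 of either differentiating WT library, either undifferentiated KO library or KO differentiating replicate 1 (0.051 to 0.072).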

How the data were processed

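The 8 RNA libraries of bone marrow MSCs were put in 4 groups of 2 from the sample labels, and 0 columns of per-sample values were left without a sample. The authors depleted ribosomal RNA, made stranded libraries, aligned reads to mm10 with TopHat2 2.1.0 and computed gene values with Cufflinks 2.2.1 and Cuffdiff, using the iGenomes annotation. The deposited values are RPKM per gene and library. From the smallest steps between low values of 2957 genes with a single transcript, 48.2 to 67.0 M scaled reads per library were estimated. Since 73.5% of 4175 low values were whole reads (to within 0.05 of a read, with 10% given by chance), reads were not recovered and no count test was run.

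The 15342 genes whose mean reached 0.1 RPKM were tested on log2(RPKM + 0.1), a scale that understates changes of low genes, with limma 3.58.1 in R 4.3.3. The fit had a mean for each group, a variance trend and 4 residual plus 1.98 prior degrees of freedom, and p-values were adjusted over all genes tested (Benjamini-Hochberg). A DEG had an adjusted p under 0.05 and an absolute log2 fold change above 1. Scripts were checked on simulated data.

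Members were chosen by symbol, and members and lists were chosen with earlier results of these data known. Values in every library are given for members with a mean of 1 RPKM or more in a group that were DEGs in at least 1 comparison, the 3 most abundant of each role, and *Ctnnb1*, *Axin2*, *Lef1*, *Tcf7*, *Lrp5*, *Lrp6* and *Sost*, with *Wif1* added after its values were seen. Other members are given by range and count. Other pathway genes are named where they were DEGs. There were 17 alternatives: leaving out each library, blocking on the replicate number, fitting only the 4 libraries of a comparison, dropping the variance trend, normalizing by quantiles or medians, and changing the pseudocount or the minimum level. Where a library was left out, the lone library of its group was assumed to vary like the other groups. Promoter windows and gene positions are from RefSeq on GRCm38.p6. Python 3.11.15 with pandas 2.3.3, numpy 2.4.6 and matplotlib 3.10.9 made the tables and plots.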

Additional observations from a re-analysis of the deposited data

Results flagged for a closer look

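The change with osteogenic induction differed between genotypes, by the interaction term and past the fold limit, for 2 members. *Rspo3* had an interaction of 1.47 on the log2 scale (SE 0.15, limma adjusted p = 0.00148), which was past the adjusted p in every alternative run (0.0012 to 0.011). It was higher in both differentiating libraries than in both undifferentiated libraries of each genotype. *Wnt10a* had an interaction of -1.11 (SE 0.27, adjusted p = 0.0219), at levels of 0.122 to 0.354 RPKM. Its change was 0.50 in WT (adjusted p = 0.0585) and -0.60 in KO MSCs (adjusted p = 0.0284). Over the alternatives its adjusted p ranged from 0.015 to 0.064.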

How the results depend on the processing

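Of the values of single genes, 2262 kept their side of the threshold, 45 lost and 34 gained a call when the processing was changed, and 2009, 117 and 34 did so when a library was left out, with 0 reversed. With a pseudocount of 0.01 there were 2 DEGs between undifferentiated genotypes. With a pseudocount of 1, which shrinks low genes, DEGs fell to 10 for induction in WT, 11 for induction in KO and 0 for the interaction, and with a minimum mean of 0.5 RPKM the interaction had 1. Fitting only the 4 libraries compared left 11 calls between differentiating genotypes. With each library left out, calls ranged from 18 to 26 (undifferentiated genotypes), 11 to 17 (differentiating genotypes), 28 to 34 (induction in WT), 34 to 38 (induction in KO) and 14 to 21 (interaction), and DEGs from 1 to 2, 0 to 0, 15 to 18, 18 to 18 and 1 to 3 in the same order. Whether replicate numbers mark a shared cell mix or culture is not given in the sources used here. The differences of replicate 2 from replicate 1 correlated at -0.09 to 0.03 between groups, over genes. No pairing by number was thus seen, but counting error in small replicate differences could hide one. With a replicate block 261 gene values kept their call, 8 lost and 1 gained it. Those lost were *Fzd3* (adjusted p = 0.073) and *Tcf7l1* (0.07) between undifferentiated genotypes, *Fzd1* (0.082) and *Wnt4* (0.075) between differentiating genotypes, *Nkd2* for induction in WT (0.055), *Wnt4* for induction in KO (0.052), and *Wnt2* (0.064) and *Wnt5b* (0.056) for the interaction. *Sfrp4* gained a call for induction in WT (0.03). The cause of these shifts was not tested. With 2 libraries per group no outlying library could be looked for, and at this depth members under about 0.03 RPKM cannot be told from 0.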
